A study of Mus musculus with 24 samples.

Results

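The duodenum and the colon of vitamin D-deficient mice were compared here by poly(A) RNA sequencing, 3 libraries of each region out of 24 samples in the series. The deficient mice were wild-type C57BL6J mice whose labels give no treatment, and replicates 1 to 3 are labelled male in both regions, with an age number that has no unit. It is 12, 10 and 13 for replicates 1 to 3 of the duodenum and 13, 10 and 13 for those of the colon. The 6 libraries were chosen as the deficient columns numbered 1 to 3 in the 7-library table of each region, which the authors named Vehicle, and the labels do not tie these numbers to a replicate or an age. Libraries are named below by region and column number. A second set of wild-type C57BL6J mice, 4 libraries per region, had received calcitriol, the hormone form of vitamin D, at 1 ng per g body weight in 3 injections 48, 24 and 6 h before collection, and their labelled ages were 14, 10, 10 and 13 in both regions. That set served as a separate look at the same regional contrast. The extraction protocol names tissue as well as isolated epithelium, and these samples are labelled only by region. Nothing says that replicates were separate experiments, so p-values measure only the spread between these samples.

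The duodenum is the first stretch of the small intestine, where gastric contents meet bile and pancreatic juice and where enterocytes with a dense brush border split sugars and peptides, take up fat, iron and calcium, and secrete bicarbonate. The colon absorbs salt and water, houses most of the gut bacteria behind a thick mucus layer, and draws energy from short-chain fatty acids. Position along the gut is held in its cells by transcription factors, among them the GATA factors and Pdx1 in front and the Hox genes of high number behind.

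Values are FPKM, fragments counted relative to transcript length and library total, put on a single scale by the median ratio over genes above 0 in all 6 libraries. Differences are duodenum minus colon on the log2(FPKM + 1) scale with their standard error, and p-values are from limma with Benjamini-Hochberg adjustment over all tested genes. At least 22414368 reads per library could be recovered from the values. All 6 libraries carried a male pattern, with the Y-linked helicase Ddx3y at 18.9 to 20.5 FPKM in the duodenum and 15.8 to 18.4 FPKM in the colon, and Xist at or under 0.147 FPKM in all 6. Libraries of a region correlated with each other over genes at 0.969 to 0.988 in the duodenum and 0.970 to 0.979 in the colon, against 0.797 to 0.843 between the regions.

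Of 12383 genes tested, 5611 (45.3%) passed an adjusted p of 0.05, of which 3043 (24.6%) were higher and 2568 (20.7%) lower in the duodenum. At least 2-fold differences made up 1288 (10.4%) of the tested genes on the higher side and 1079 (8.71%) on the lower side, and differences of at least 32-fold 79 and 32 genes. The 3 duodenal libraries lay entirely above the 3 colonic ones in 30.8% of tested genes and entirely below them in 26.4%. The balance of higher and lower calls depended on how the regions were scaled. With the values as deposited, 1473 genes were higher and 6044 lower, and the median difference of all tested genes was -0.42, against 0.02 on the scale used here. Upper-quartile rescaling gave 2030 higher and 3978 lower (median -0.21), and a median ratio over genes of at least 10 FPKM gave 1940 higher and 4153 lower (median -0.23). Under all 5 scalings tried, 1447 genes (11.7%) stayed higher and 2175 (17.6%) stayed lower, and counts of lists are given below with those that passed under all 5 where the counts differ. Tested genes had at least 1 FPKM in at least 3 libraries. Any gene under 1 FPKM in every library of a region therefore passed only through the other region and had to differ, so its call is a description.

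**Figure D1:**
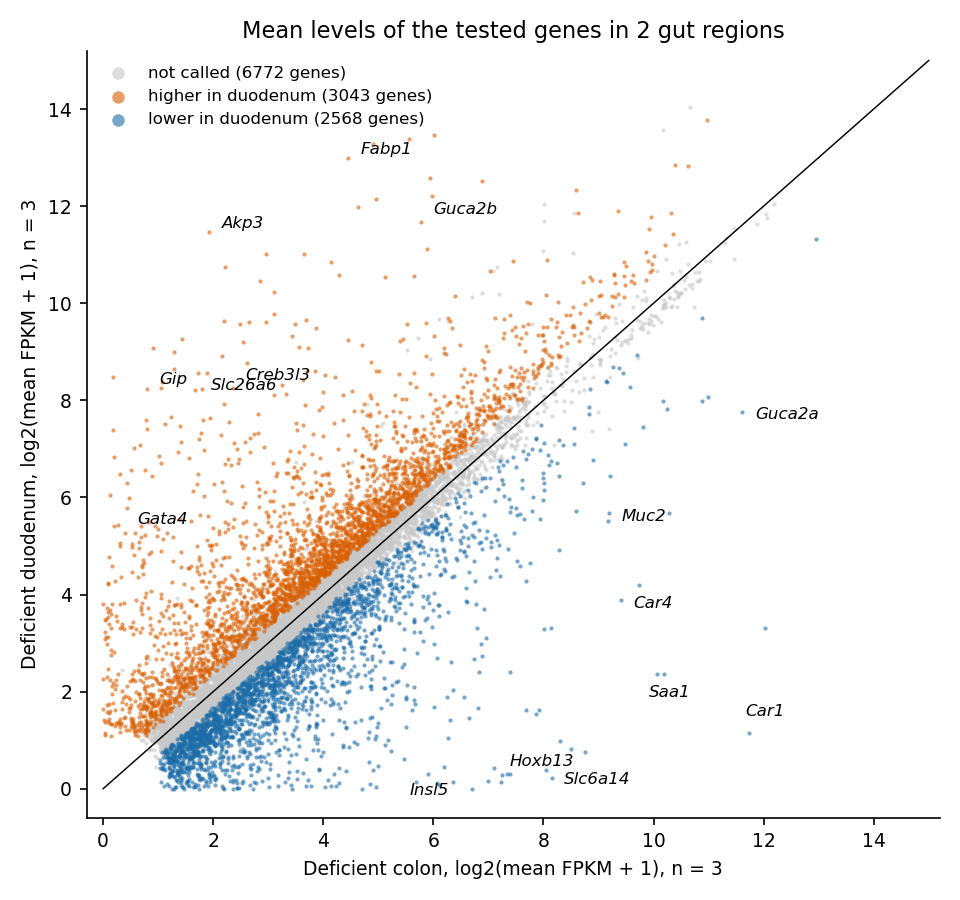
Mean level of each of the 12383 tested genes in 3 deficient duodena (vertical axis) and 3 deficient colons (horizontal axis), both as log2(FPKM + 1), with called genes in colour and several genes of the text named. Genes spread widely on both sides of the diagonal, with 1288 called at least 2-fold higher and 1079 at least 2-fold lower in the duodenum.

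The genes described first were the 24 with the smallest p-values, 12 in each direction, taken from called genes at least 2-fold apart whose groups did not overlap. Those under 1 FPKM in every library of a region, Slc6a14, Tmprss15, Afp, Hoxb9, 9130206I24Rik and Slc5a8 among them, had to differ given the filter. Slc6a14, an amino acid transporter of broad specificity, had 0.0531, 0.128 and 0.338 FPKM in the duodenum and 297, 280.0 and 273 FPKM in the colon. It was near 0 in every duodenal library, and the difference was -7.93 ± 0.12 (adjusted p = 6.2e-07). On the duodenal side stood Tmprss15, the enteropeptidase that activates trypsinogen, with 74.3, 54.9 and 65.5 FPKM in the duodenum and 0.115, 0.0285 and 0.106 FPKM in the colon (5.92 ± 0.14, adjusted p = 2.9e-06). Also on that side were Creb3l3 (5.91), a membrane-bound transcription factor of lipid metabolism, the anion exchanger Slc26a6 (6.85), the peptidase Dpp4 (3.50), the sterol acyltransferase Soat2 (5.15) and the urea cycle enzyme Cps1 (5.44). Afp, the fetal serum protein alpha-fetoprotein, had 19.6, 17.1 and 16.7 FPKM in the duodenum, against 0.136, 0.0299 and 0.0278 FPKM in the colon (4.14). The other members of this group were 2210010C17Rik (4.57), the GATA cofactor Zfpm1 (4.16), the scaffold protein gene Mpp1 (3.89), Depdc7 (4.04) and Abhd3 (4.26). On the colonic side, besides Slc6a14, were the sialyltransferase St6galnac6 (-6.30), Hoxb9 (-4.74), the epithelial transcription factor Ehf (-3.22), the G protein subunit Gna14 (-3.52), the lysophospholipid acyltransferase Mboat1 (-5.20), Sval1 (-7.97), the fatty acid hydroxylase Fa2h (-5.52), the lincRNA 9130206I24Rik (-3.50), the lactate and butyrate cotransporter Slc5a8 (-5.62), the acyl-CoA synthetase Acsm3 (-4.34) and the secreted phospholipase Pla2g10 (-4.43).

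Tissue markers sorted the libraries by their labels. Of 10 markers of the duodenum, 8 were higher and 1 was lower, with a median of 4.77, and their summed level was 18280, 23430 and 15990 FPKM in the duodenum against 274, 145 and 115 FPKM in the colon. The marker on the other side was the zinc finger gene Osr2, with 2.68, 7.24 and 6.3 FPKM in the duodenum and 22.9, 23.1 and 34 FPKM in the colon (-2.17 ± 0.32, adjusted p = 0.0015). Of 10 colonic markers, 9 were lower in the duodenum, with a median of -5.20 and summed levels of 166, 219.5 and 417 FPKM in the duodenum and 5214, 3290 and 8301 FPKM in the colon. A gene under 1 FPKM in every library of one region passed the filter only through the other region and so had to differ. This applied to 2 of the duodenal and 4 of the colonic markers, and with a library left out and the filter applied again 6 to 9 and 4 to 10 were called. The exceptions that did not pass were the iron exporter Slc40a1 among the duodenal markers (1.01 ± 0.36, adjusted p = 0.056) and the angiogenin Ang4 among the colonic ones (-1.74 ± 0.64, adjusted p = 0.062). Slc40a1 was called without duodenum 3 (1.21) or colon 1 (1.29), and Ang4 without duodenum 3 (-2.39) or colon 2 (-2.18) and under the other 4 scalings.

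A few libraries stood apart. Pancreatic enzyme transcripts, which belong to an organ attached to the duodenum, summed to 13880, 79180 and 11770 FPKM in the duodenum and to 5547, 230.4 and 4660 FPKM in the colon, so that duodenum 2 was highest and colon 2 lowest by far. Only 3 of 19 tested enzymes passed, with 1 passing without duodenum 2, 1 without colon 2 and 6 without colon 1. In colon 1 the fatty acid binding protein Fabp1, a duodenal marker here, was at 45.5 FPKM, against 6.12 and 10.8 FPKM in colons 2 and 3. The cause was not tested. Library 3 of each region led the proliferation genes, in which duodenum 3 was highest of its region for 14 of 16 and colon 3 for 16 of 16. The numbers 3 are not known to belong to the same animal.

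Markers of cells other than the epithelium differed too, and in bulk tissue fewer cells of a type and less RNA per cell cannot be told apart. T and NK cell genes were higher in the duodenum for 12 of 13 tested (11 under all 5 scalings, median 1.63), with sums of 356, 250.1 and 653 FPKM in the duodenum against 43.9, 36.4 and 29.1 FPKM in the colon. Granzyme A, Gzma, a protease of intraepithelial lymphocytes, had 221, 152 and 469.9 FPKM in the duodenum and 12.3, 10.2 and 4.6 FPKM in the colon (4.75 ± 0.47, adjusted p = 0.00024). Every duodenal library lay far above every colonic one. Gzmb (3.05), the T cell co-receptor Cd8a (2.09) and the receptor chain Cd3e (1.94) passed in the same direction. Genes of MHC class II and myeloid cells were higher for 7 of 11, but 2 held under all 5 scalings, and 4, 2 and 3 passed without colons 1, 2 and 3. Their sums were 1269, 1049 and 2954 FPKM in the duodenum and 810.5, 738 and 686 FPKM in the colon, and duodenum 3 was highest of its region for 10 of the 11. Csf1r, the receptor of the macrophage growth factor, was the member with the smallest p (1.52 ± 0.22, adjusted p = 0.0013), followed by the integrin Itgax (1.18). B and plasma cell genes were higher for 4 of 9 and 1 under all 5 scalings, Derl3, a protein of endoplasmic reticulum degradation (1.65 ± 0.23, adjusted p = 0.0012). Their sums were 545, 420.5 and 1824 FPKM in the duodenum and 315, 338 and 337 FPKM in the colon, with duodenum 3 far above the others.

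Muscle, nerve and connective tissue genes pointed the other way. Smooth muscle genes were lower in the duodenum for 9 of 10 (median -1.87), with sums of 320.2, 442 and 389.5 FPKM in the duodenum and 1146, 2642 and 1794 FPKM in the colon. Tagln, an actin-binding protein of smooth muscle, had 65.8, 98.6 and 93.5 FPKM in the duodenum and 381, 837 and 559 FPKM in the colon (-2.72 ± 0.30, adjusted p = 0.00041). Cnn1 (-3.01), Actg2 (-2.75) and Acta2 (adjusted p = 0.0017), also contractile proteins, were lower as well. Enteric neuron and glia genes were lower for 9 of 10 (8 under all 5 scalings, median -1.19), including the glial filament Gfap (-2.17), the glial factor Sox10 (-1.06), the neuronal filament Prph (-1.66) and the synaptic protein Snap25, which was listed at 0 in all 3 duodena and at 3.5, 1.88 and 1.64 FPKM in the colon. Of these 10 genes, 5 were under 1 FPKM in all 3 duodena and passed the filter only through the colon. With a library left out and the filter applied again, 3 to 8 were lower. Fibroblast and endothelial genes were lower for 7 of 10, led by the collagens Col3a1 (-1.95), Col1a2 (-1.66) and Col1a1 (-1.86). Of 6 adipocyte genes 3 were lower, 1 without duodenum 1, duodenum 3, colon 2 or colon 3 and 5 without duodenum 2. Cidec, a lipid droplet protein, was higher in the duodenum (3.23 ± 0.22, adjusted p = 4.5e-05). Of 7 general epithelial genes, 1 was higher and 2 were lower, and their sums lay at 5428, 5556 and 6578 FPKM in the duodenum and 7165, 6950 and 6652 FPKM in the colon. The part of these cell markers in the differences of the gene groups described next was not tested.

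**Figure D2:**
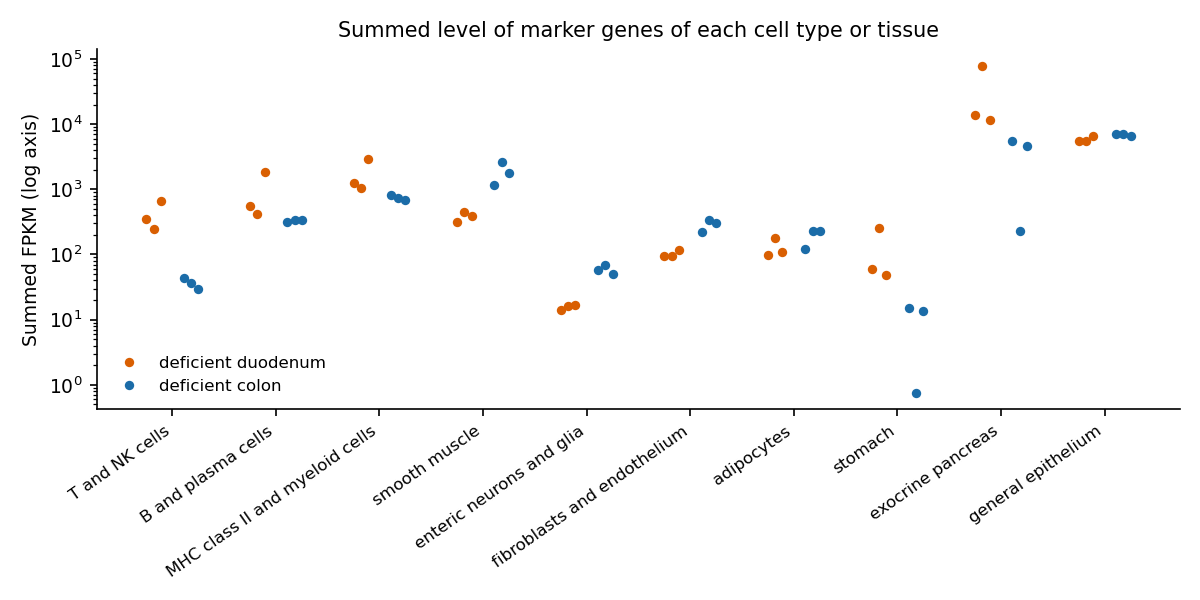
Summed FPKM of each marker list (log axis) in the 3 duodena and the 3 colons, 1 point per library. T and NK cell sums were 250.1 to 652.8 in the duodenum and 29.11 to 43.93 in the colon, and smooth muscle sums 320.2 to 442.3 in the duodenum and 1146 to 2642 in the colon.

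Hox genes, which encode transcription factors of position along the body axis, were lower in the duodenum for nearly all tested members. The table holds 39 of them, and 23 passed the filter. Of the 23, 14 were under 1 FPKM in all 3 duodena, so they passed only through the colon and had to differ, and the counts and medians here are a description. Among all 23, 21 were lower (20 without duodenum 2, where Hoxb4 at -0.58 had an adjusted p of 0.06) and none higher, with a median of -2.28 beside 0.02 over all tested genes. Genes of higher number lie at the 5′ end of each cluster. Genes numbered 1 to 5 had 7 lower of 9 and a median of -1.61, with 2 of the 9 under 1 FPKM in all 3 duodena. Those numbered 6 to 9 had 8 lower of 8 and a median of -2.75, with 6 under 1 FPKM there, and those numbered 10 to 13 had 6 of 6 and a median of -3.76, with all 6 under it. Mean levels of these 3 groups of genes were 0.543 to 4.06, 0.0746 to 0.959 and 0 to 0.345 FPKM in the duodenum, against 0.897 to 11.8, 2.44 to 27.7 and 3.58 to 149 FPKM in the colon.

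Hoxb13, at chr11:96055630-96058761 on the plus strand of NCBIM37, showed the largest difference of the tested Hox genes. It had 0, 0.0706 and 0.213 FPKM in the duodenum and 202, 169 and 75.2 FPKM in the colon (-6.98 ± 0.35, adjusted p = 1.2e-05). Colon 3 was the lowest of its region and still far above every duodenal library. The gene at the other end of the cluster on chromosome 11, Hoxb1, lay 168.3 kb away and had 0.896, 0.77 and 1.03 FPKM in the duodenum and 0.576, 0.63 and 0.558 FPKM in the colon, below the filter. Along the cluster the difference was 0.04 for Hoxb2, -1.61 for Hoxb3, -0.67 for Hoxb4, -1.94 for Hoxb5, -3.57 for Hoxb6, -2.76 for Hoxb7, -2.75 for Hoxb8 and -4.74 for Hoxb9. Hoxb9 had 0.0547, 0.0822 and 0.0869 FPKM in the duodenum and 26.4, 26.4 and 30.2 FPKM in the colon.

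In the Hoxa cluster Hoxa2 (-1.11), Hoxa3 (-1.94) and Hoxa5 (-1.77) were lower, and Hoxa4 did not pass (0.32 ± 0.14, adjusted p = 0.11). Hoxa6 (-2.28), Hoxa7 (-3.16), Hoxa9 (-2.69), Hoxa10 (-3.86) and Hoxa13 (-3.67) were lower too. Hoxa11 was listed at 0 in all 3 duodena and had 11.8, 10.7 and 6.73 FPKM in the colon (adjusted p = 2.2e-05), and Hoxa13 had 0.0614, 0.0369 and 0 FPKM in the duodenum and 16.5, 14 and 7.57 FPKM in the colon. In the Hoxd cluster, Hoxd4 (-1.74), Hoxd9 (-1.27) and Hoxd13 (-3.86) were lower, and Hoxd10 was listed at 0 in all 3 duodena and at 3.34, 4.3 and 3.11 FPKM in the colon (adjusted p = 2.4e-05). Hoxd13 had 0, 0.0181 and 0.0546 FPKM in the duodenum and 20.5, 18.9 and 6.6 FPKM in the colon. The 9 Hoxc genes stayed low in every library, and none passed the filter.

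**Figure D3:**
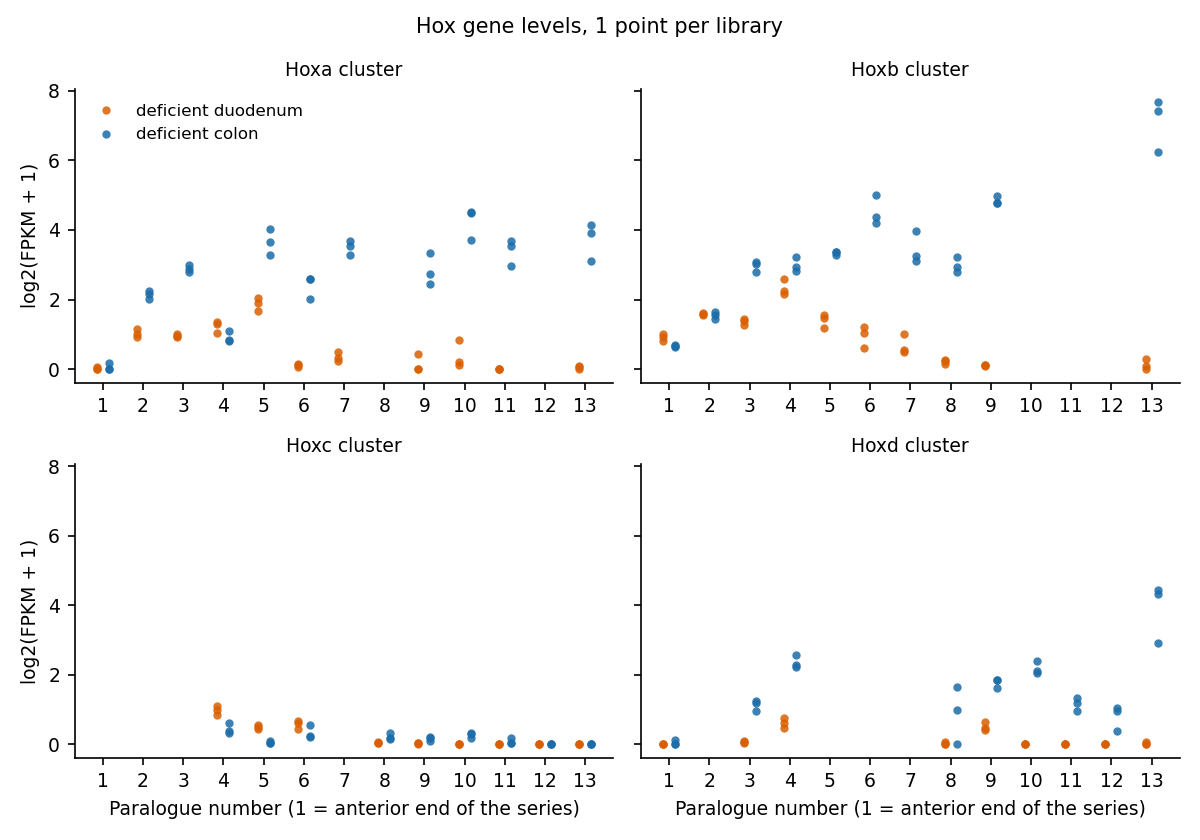
Level of each Hox gene, as log2(FPKM + 1), by its number in each of the 4 clusters, with 1 point for each of the 3 duodena (left) and the 3 colons (right). The highest colonic level was that of Hoxb13, up to 202 FPKM, and the 3 duodena stayed close to 0 for all genes numbered 10 to 13.

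Transcription factors of the small intestine were higher in the duodenum for 9 of 18 and lower for 4. The 22.2% lower lay near the 20.7% of all tested genes. Of the 18, 4 were under 1 FPKM in all 3 colons, Gata4 and Pdx1 among them. They passed the filter only through the duodenum and so had to differ. With a library left out and the filter applied again, 5 to 10 were higher. Gata4, which specifies the proximal small intestine, had 43.6, 37.7 and 31.7 FPKM in the duodenum and 0.532, 0.176 and 0.237 FPKM in the colon (4.88 ± 0.17, adjusted p = 3.7e-06). Pdx1, a factor of the pancreas and duodenum, had 36.9, 29.1 and 26.6 FPKM in the duodenum and 0.34, 0.199 and 0.185 FPKM in the colon (4.67 ± 0.15, adjusted p = 3.4e-06). In both the colon was close to 0 and the groups were far apart. Creb3l3 had 297, 326 and 284 FPKM in the duodenum and 5.32, 3.42 and 3.59 FPKM in the colon, and Onecut2 differed by 4.05. Within families the members parted. Gata5 (3.85) differed more than Gata6 (1.79). Hnf4g, a nuclear receptor of enterocyte identity, had 203, 204 and 143 FPKM in the duodenum and 9.37, 10.8 and 10.7 FPKM in the colon (4.02 ± 0.16). Its relative Hnf4a, with 139.9, 149 and 154 FPKM in the duodenum and 142, 131 and 119.7 FPKM in the colon, overlapped between the regions (0.17 ± 0.12, adjusted p = 0.28). The bile acid receptor Nr1h4 (-1.56), Nr5a2 (-1.39), the pioneer factor Foxa1 (-2.75) and Osr2 were lower.

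Of 8 tested factors linked to the posterior gut, 3 were lower in the duodenum and 3 higher (2 under all 5 scalings). Cdx1 had 70.4, 86.5 and 84.7 FPKM in the duodenum and 203, 191 and 190.1 FPKM in the colon (-1.27 ± 0.13, adjusted p = 0.00024), whereas its relative Cdx2 did not pass (0.15 ± 0.17, adjusted p = 0.52). The T-box factor Tbx3 was higher, with 54.1, 42 and 38.1 FPKM in the duodenum and 5.54, 4.41 and 5.28 FPKM in the colon (2.90 ± 0.16).

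Genes of digestion and uptake were far more abundant in the duodenum. Brush border hydrolases were higher in the duodenum for 16 of 18 and lower for 1, with a median of 5.80. Sis, sucrase-isomaltase, had 2279, 2383 and 1564 FPKM in the duodenum and 18.9, 8.77 and 6.89 FPKM in the colon (7.47 ± 0.35, adjusted p = 9.4e-06). Lct, the lactase, had 555, 519 and 122 FPKM in the duodenum and 3.55, 0.391 and 0.355 FPKM in the colon (7.33 ± 0.69, adjusted p = 0.0002). Duodenum 3 was the lowest of its region and still exceeded every colon, and without it the difference was 8.07. Aminopeptidase N, Anpep, had 554, 626 and 733 FPKM in the duodenum and 10.6, 12.7 and 6.22 FPKM in the colon (5.92). The peptidases Mme (6.85) and Dpp4 (3.50) also passed. The largest difference was that of Akp3, an intestinal alkaline phosphatase, with 4037, 3872 and 549 FPKM in the duodenum and 3.8, 0.647 and 3.93 FPKM in the colon (9.24 ± 0.82, adjusted p = 0.00015, and 10.21 without duodenum 3). The member on the other side was meprin alpha, Mep1a, with 34.1, 44.3 and 12.9 FPKM in the duodenum and 149, 158 and 85.7 FPKM in the colon (-2.18 ± 0.45, adjusted p = 0.0069). Its partner subunit Mep1b was higher in the duodenum (2.77 ± 0.20).

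Structural genes of the brush border were higher for 12 of 13 (11 under all 5 scalings) by a smaller median of 1.87. Villin, Vil1, which bundles actin in microvilli, had 1224, 1029 and 872 FPKM in the duodenum and 241, 195 and 187 FPKM in the colon (2.32 ± 0.19, adjusted p = 9.7e-05). The scaffold gene Pdzk1 (5.23) differed more than Slc9a3r1 (2.40) and Plac8 (2.44). Eps8, which caps actin, was the member lower in the duodenum (-1.68 ± 0.22, adjusted p = 0.00082).

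Carriers of sugars, peptides and amino acids were higher for 15 of 19 and lower for 2 (1 without colon 1), with a median of 3.85. The glucose carrier of the basolateral membrane, Slc2a2, had 647, 556 and 334 FPKM in the duodenum and 3.26, 0.499 and 0.586 FPKM in the colon (7.84 ± 0.44). The fructose carrier Slc2a5 had 174, 156 and 146 FPKM in the duodenum and 3.7, 1.94 and 1.69 FPKM in the colon (5.58 ± 0.22, adjusted p = 5.1e-06), and fructokinase, Khk, followed with 853, 939.5 and 841 FPKM in the duodenum and 12.8, 4.89 and 5.22 FPKM in the colon (6.79 ± 0.31). In each of these the lowest duodenum exceeded the highest colon many times over. The cystine carrier subunit Slc7a9 was higher as well (3.85). Slc6a14, described above, and Slc7a7, the light chain of a basolateral amino acid exchanger (-0.85 ± 0.22, adjusted p = 0.019), were the members lower in the duodenum.

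Genes of fat and sterol absorption lay on the duodenal side. Of 22 genes, 18 were higher and none lower in the duodenum, and each of the 18 held under all 5 scalings (median 4.43). Fabp1, which carries fatty acids in the cytosol, had 7305, 9222 and 8005 FPKM in the duodenum and 45.5, 6.12 and 10.8 FPKM in the colon (9.01 ± 0.62, adjusted p = 4.8e-05). The apolipoprotein Apoa4 had 9714, 12920 and 7197 FPKM in the duodenum and 68.3, 6.7 and 11.8 FPKM in the colon (8.99 ± 0.75, adjusted p = 0.00011). Colon 1 was highest of its region for Fabp1, Apoa4 and Apoc3. Without it Fabp1 differed by 9.79, Apoa4 by 9.92 and Apoc3 by 9.32. Without colon 2 Apoa4 differed by 8.34, and without colon 3 Apoc3 by 7.91. The neighbours of Apoa4 on chromosome 9 differed likewise, Apoc3 (8.53), 5.1 kb away, and Apoa1 (7.98), a further 2.5 kb on. Triglyceride synthesis was represented by Mogat2, with 287, 299 and 309 FPKM in the duodenum and 3.04, 1.47 and 2.89 FPKM in the colon (6.46 ± 0.20, adjusted p = 3.1e-06), by Dgat1 (4.44) and by the acyl-CoA synthetase Acsl5 (4.04). Mttp, which loads fat onto apolipoprotein B, differed by 7.50 ± 0.32. Cholesterol uptake by Npc1l1 (6.43) and cholesterol esterification by Soat2 (5.15) lay on the same side. The fatty acid translocase Cd36 did not pass (0.49 ± 0.32, adjusted p = 0.24), but did without duodenum 3 (0.84, adjusted p = 0.0178).

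The promoters of 3 of these genes are shown since Fabp1, Sis and Lct carry the contrast in uptake and digestion. They run from 250 bases before to 50 bases after the transcription start in RefSeq on GRCm38.p6. Capitals mark matches, on either strand, to the letters of 5 motifs. These are AGATAA for GATA factors, CAAAGTC for HNF4, and TTTATNG for CDX and posterior HOX factors. The other motifs are GTTAAT, a part of the HNF1 site, and TATAAA, the TATA box. The reverse of TTTATNG can overlap TATAAA.
Fabp1 (chr6:71199629-71199928, plus strand): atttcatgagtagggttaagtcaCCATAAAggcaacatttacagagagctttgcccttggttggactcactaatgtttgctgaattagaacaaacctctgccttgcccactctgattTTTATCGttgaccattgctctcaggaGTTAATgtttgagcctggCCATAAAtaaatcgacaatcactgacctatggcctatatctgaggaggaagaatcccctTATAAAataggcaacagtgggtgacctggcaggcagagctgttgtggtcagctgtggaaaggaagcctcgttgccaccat
Sis (chr3:72967814-72968113, minus strand): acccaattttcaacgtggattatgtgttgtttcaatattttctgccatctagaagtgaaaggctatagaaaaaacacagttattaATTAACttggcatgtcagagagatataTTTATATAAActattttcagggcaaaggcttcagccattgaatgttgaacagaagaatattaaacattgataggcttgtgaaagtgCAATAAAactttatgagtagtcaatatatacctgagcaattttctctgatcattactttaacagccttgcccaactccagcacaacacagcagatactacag
Lct (chr1:128328269-128328568, minus strand): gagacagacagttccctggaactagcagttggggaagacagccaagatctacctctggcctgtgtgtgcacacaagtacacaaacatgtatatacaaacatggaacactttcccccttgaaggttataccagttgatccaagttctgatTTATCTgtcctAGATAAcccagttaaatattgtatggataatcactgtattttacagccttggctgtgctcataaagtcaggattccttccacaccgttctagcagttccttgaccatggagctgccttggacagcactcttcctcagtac
Fabp1 held 3 matches to the CDX and posterior HOX letters, 1 partial HNF1 site and 1 TATA box, 30 bases before the start. Sis held 1 CDX and posterior HOX match and 1 partial HNF1 site. It also held 2 overlapping matches to the TATA box letters, 138 and 134 bases before the start. Lct held 2 GATA matches, 101 and 90 bases before the start. Promoters were found for 9849 of the 12383 tested genes. The GATA letters occurred in 10.4% of 1002 promoters of genes at least 2-fold higher, in 7.62% of 800 promoters of genes at least 2-fold lower and in 6.71% of all tested promoters. For HNF4 the shares were 6.99%, 4.88% and 3.98%, for CDX and posterior HOX 10.4%, 11.4% and 7.5%, for the partial HNF1 site 6.49%, 5.12% and 4.26%, and for the TATA box 12.5%, 13.4% and 8.06%. Among all 27025 promoters of the table the shares were 11.4% for GATA, 4.36% for HNF4, 11.3% for CDX and posterior HOX, 7.2% for the partial HNF1 site and 14.2% for the TATA box. No test of the differences between these shares was run, and these are counts of letters and not of bound sites.

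**Figure D4:**
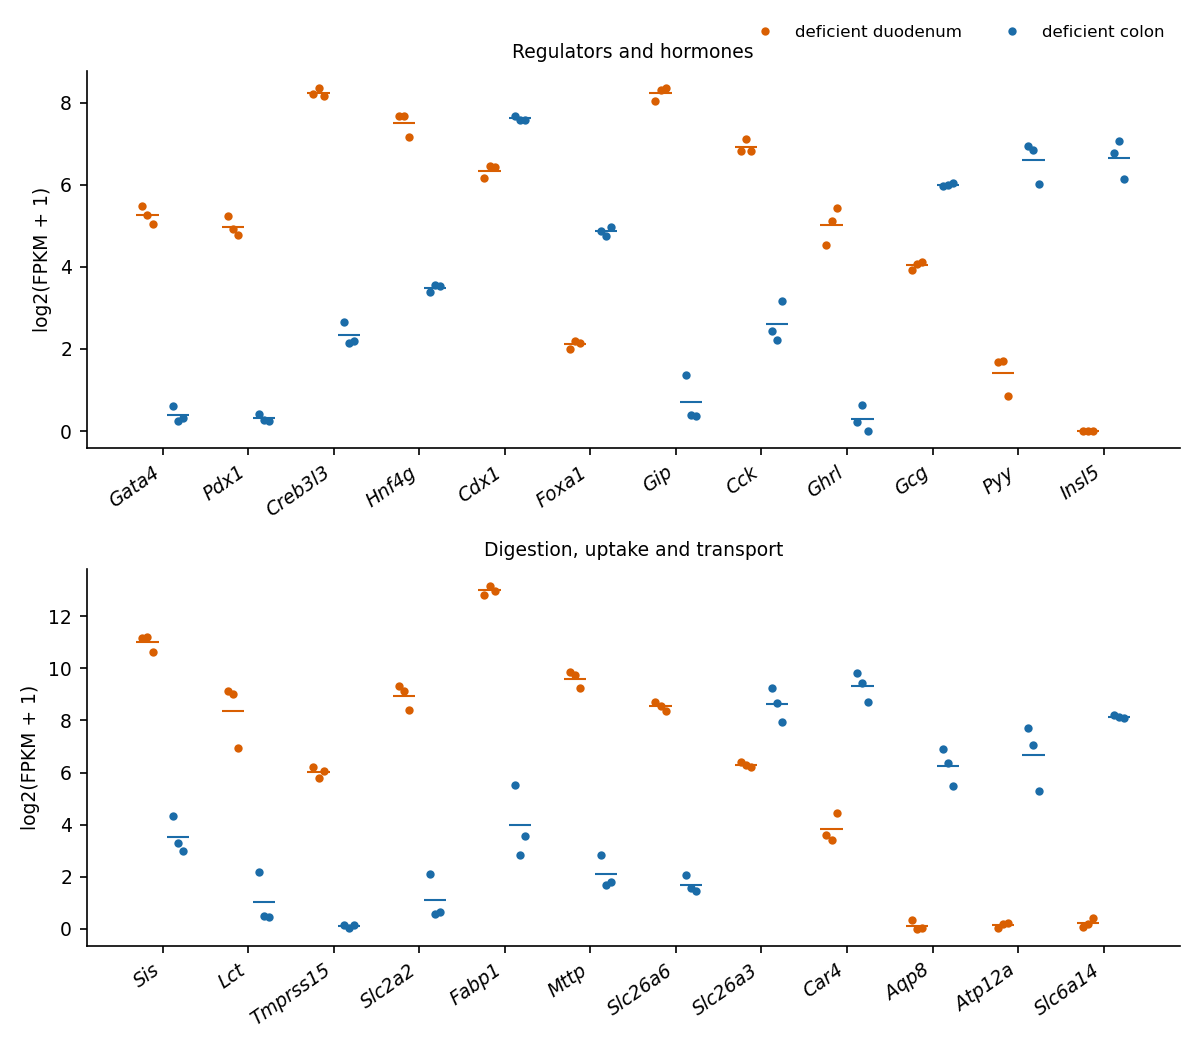
Level in each library, as log2(FPKM + 1), of 12 regulators and hormones (upper panel) and 12 genes of digestion, uptake and transport (lower panel), with the 3 duodena left of the 3 colons for each gene and the mean as a line. No gene shown has overlapping regions, with Fabp1 at 7305 to 9222 FPKM in the duodenum against 6.12 to 45.5 FPKM in the colon, and Slc6a14 at 0.0531 to 0.338 FPKM in the duodenum against 273 to 297 FPKM in the colon.

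Intermediary metabolism differed by pathway. Genes listed for arginine and citrulline synthesis were higher in the duodenum for 9 of 11, each under all 5 scalings (median 1.88). Citrulline synthesis is a speciality of small-intestinal enterocytes. Cps1, which makes carbamoyl phosphate in mitochondria, had 165, 151 and 121 FPKM in the duodenum and 2.04, 2.16 and 2.87 FPKM in the colon (5.44 ± 0.16, adjusted p = 3.1e-06). Arginase 2, Arg2, which splits arginine, had 466, 478 and 355 FPKM in the duodenum and 6.73, 5.29 and 3.42 FPKM in the colon (6.17 ± 0.22, adjusted p = 4.4e-06). The ornithine carrier Slc25a15 (3.42), Otc (3.02) and Nags (3.04) joined them. The step that turns citrulline towards arginine, Ass1, ran the other way with 3.41, 3.35 and 4.1 FPKM in the duodenum and 20.8, 23.2 and 19.2 FPKM in the colon (-2.26 ± 0.13, adjusted p = 1.9e-05). Asl, which completes that conversion, did not pass. Neither gene that makes arginine from citrulline was called higher in the duodenum.

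Purine and nucleoside genes were higher for 10 of 13 (8 under all 5 scalings) and lower for 2. Adenosine deaminase, Ada, had 748, 605 and 990.3 FPKM in the duodenum and 5.66, 3.94 and 6.18 FPKM in the colon (6.95 ± 0.22, adjusted p = 3.1e-06), a gap without overlap. The phosphodiesterase Enpp3 (6.56), the nucleoside carrier Slc28a2 (5.27) and guanine deaminase, Gda (3.93), followed. The lower members were the ectonucleotidase Nt5e (-1.57 ± 0.37, adjusted p = 0.012) and the carrier Slc29a1 (-0.72).

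Genes of glucose metabolism were higher in the duodenum for 9 of 14 (8 under all 5 scalings) and lower for 4. The lower ones were 28.6% beside 20.7% of all tested genes. The gluconeogenic Fbp1 had 183, 163 and 73.5 FPKM in the duodenum and 2.49, 1.45 and 1.02 FPKM in the colon (5.66 ± 0.37, adjusted p = 3.5e-05), and glucose-6-phosphatase, G6pc, differed by 5.08 ± 0.36. The liver-type pyruvate kinase Pklr was higher (3.20 ± 0.12, adjusted p = 5.1e-06). The hexokinases went the other way. Hk1 had 3.66, 3.19 and 3.36 FPKM in the duodenum and 53.7, 42.9 and 37.5 FPKM in the colon (-3.36 ± 0.15), and Hk2 had 4.97, 4.43 and 6.12 FPKM in the duodenum and 34.9, 30.2 and 30.1 FPKM in the colon (-2.41 ± 0.14). In phosphofructokinase the subunits parted, with Pfkp higher (1.29) and Pfkl lower (-1.27) in the duodenum.

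Iron genes were higher for 5 of 10 and lower for 1. Cybrd1, the ferric reductase of the duodenal brush border, had 47.8, 34.8 and 25.8 FPKM in the duodenum and 0.778, 1.07 and 1.06 FPKM in the colon (4.20 ± 0.22, adjusted p = 1.4e-05). The folate and heme carrier Slc46a1 (4.84), the iron importer Slc11a2 (2.23) and ferritin heavy chain, Fth1 (2.80), were higher too. The heme oxygenase Hmox1 was lower (-1.42 ± 0.23, adjusted p = 0.0022). Vitamin A genes were higher for 4 of 7 and lower for none. Rbp2, the retinol carrier of enterocytes, had 5362, 6938 and 5987 FPKM in the duodenum and 104, 53 and 24.4 FPKM in the colon (6.85 ± 0.47, adjusted p = 4.7e-05), and the retinol dehydrogenase Rdh7 had 213, 194 and 90.3 FPKM in the duodenum and 0, 0.378 and 0 FPKM in the colon (7.13 ± 0.33). Lrat (2.01), which esterifies retinol, and the carotene-splitting Bcmo1 (1.98) followed.

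Calcium and vitamin D genes were mixed in these deficient mice, whose hormone level is not given. Of 11 tested, 5 were higher and 2 lower, 2 and 2 under all 5 scalings. The 18.2% lower lay near the 20.7% of all tested genes. The count of higher genes was 2 without any one of duodenum 1, duodenum 2, colon 1 and colon 3, and that of lower genes was 1 without colon 1 or colon 2. The vitamin D receptor, Vdr, had 166, 133 and 79 FPKM in the duodenum and 116, 93.1 and 66.4 FPKM in the colon, with overlapping groups (0.42 ± 0.31, adjusted p = 0.3). Without duodenum 3 it was called at 0.73 (adjusted p = 0.0483). S100g, the calcium-binding protein calbindin-D9k, had 1517, 3654 and 426 FPKM in the duodenum and 168, 334 and 17.5 FPKM in the colon (3.71 ± 1.17, adjusted p = 0.037). Its groups were apart, but its spread within each region was wide. The call was lost without duodenum 1, duodenum 2, colon 1 or colon 3, and the difference lay between 2.49 without colon 3 and 4.57 without colon 2. Trpv6, the apical calcium channel, had 0.175, 1.22 and 0.0568 FPKM in the duodenum and 4.09, 3.71 and 0.0382 FPKM in the colon and did not pass (-1.06 ± 0.62, adjusted p = 0.21), but without colon 3 it was called at -1.77 (adjusted p = 0.0083). Cyp24a1, which degrades the hormone, stayed at or under 0.0674 FPKM in all 6 libraries and was not tested.

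The manganese exporter Slc30a10 had 61.7, 66.6 and 16.8 FPKM in the duodenum and 7.4, 15.7 and 1.92 FPKM in the colon (2.51 ± 0.73, adjusted p = 0.027). That call too was lost without duodenum 1, duodenum 2, colon 1 or colon 3, with 1.83 without colon 3 and 3.14 without duodenum 3. The sugar phosphate carrier Slc37a2, with 36.5, 50.4 and 6.04 FPKM in the duodenum and 39.4, 38.8 and 12.5 FPKM in the colon, overlapped fully (-0.23 ± 0.78, adjusted p = 0.84). Among pore-forming claudins, Cldn15 had 501, 549.6 and 568 FPKM in the duodenum and 70.3, 68.8 and 78.1 FPKM in the colon (2.88 ± 0.12, adjusted p = 6.8e-06), while Cldn2 had 29.7, 26 and 31.2 FPKM in the duodenum and 72.7, 51.2 and 93.1 FPKM in the colon (-1.25 ± 0.21, adjusted p = 0.003). Among 15 phosphate and metal carriers 3 were higher and 5 lower, 20% and 33.3% of those tested, beside 24.6% and 20.7% of all tested genes. The magnesium channel Trpm6 had 0.0978, 0.0588 and 0.0987 FPKM in the duodenum and 28.8, 17.9 and 8.52 FPKM in the colon (-4.01 ± 0.37, adjusted p = 0.00019). The zinc and manganese carriers Slc39a14 (2.88) and Slc39a5 (1.56) were higher and Slc39a8 (-1.59) lower.

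Salt and water transport genes differed in both directions. Sodium, potassium and chloride genes were lower in the duodenum for 12 of 22 (11 under all 5 scalings) and higher for 3 (2), while their summed level was 6788, 6359 and 5023 FPKM in the duodenum and 4453, 3239 and 1988 FPKM in the colon. Of the 22, 4 were under 1 FPKM in all 3 duodena and passed the filter only through the colon. With a library left out and the filter applied again, 7 to 12 were lower. Hsd11b2, which shields the mineralocorticoid receptor from glucocorticoids, had 2.19, 1.33 and 2.7 FPKM in the duodenum and 283, 218 and 111 FPKM in the colon (-5.98 ± 0.35, adjusted p = 2.2e-05). The colonic proton pump Atp12a had 0.0366, 0.143 and 0.166 FPKM in the duodenum and 208, 133 and 38.4 FPKM in the colon (-6.54 ± 0.55), with colon 3 lowest of its region (-7.18 without it). The epithelial sodium channel subunit Scnn1a was lower (-3.05 ± 0.31), as were the chloride channels Ano1 (-3.37) and Best2 (-4.07) and the cotransporter Slc12a2 (-1.55). Anion exchangers divided the regions. Slc26a6 had 422, 375 and 333 FPKM in the duodenum and 3.17, 2.01 and 1.74 FPKM in the colon (6.85 ± 0.18, adjusted p = 2.9e-06), and Slc26a3 had 82.9, 77.6 and 72.7 FPKM in the duodenum and 604, 405 and 244 FPKM in the colon (-2.32 ± 0.31, adjusted p = 0.00091). The chloride channel Cftr overlapped between the regions (0.05 ± 0.16, adjusted p = 0.84). Among 6 aquaporins, 3 were higher and 2 lower. Aqp8 had 0.267, 0 and 0.0242 FPKM in the duodenum and 118, 82.1 and 44.1 FPKM in the colon (-6.13 ± 0.33), and Aqp4 was lower as well (-3.45), whereas Aqp7 (2.12) and Aqp11 (2.02) were higher.

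Carbonic anhydrases, which interconvert carbon dioxide and bicarbonate, held the largest difference of any tested gene. Car1, at chr3:14766217-14778459 on the minus strand of NCBIM37, had 0.659, 1.43 and 1.56 FPKM in the duodenum and 2450, 1345 and 6450 FPKM in the colon (-10.31 ± 0.53, adjusted p = 1.2e-05). Every colonic library lay far above every duodenal one, and without colon 3, the highest, the difference was -9.68. The membrane-bound Car4 had 11.2, 9.54 and 20.8 FPKM in the duodenum and 915, 702 and 416 FPKM in the colon (-5.52 ± 0.36, adjusted p = 3.6e-05). Of 10 tested, 5 were lower, with Car8 (-1.90) and Car12 (-2.57) among them, and 3 higher (2 under all 5 scalings). The higher ones were 30% beside 24.6% of all tested genes. The Car4 promoter, shown as that of a colonic gene, held 1 CDX and posterior HOX match and 1 TATA box that overlap, both after the start.
Car4 (chr11:84957504-84957803, plus strand): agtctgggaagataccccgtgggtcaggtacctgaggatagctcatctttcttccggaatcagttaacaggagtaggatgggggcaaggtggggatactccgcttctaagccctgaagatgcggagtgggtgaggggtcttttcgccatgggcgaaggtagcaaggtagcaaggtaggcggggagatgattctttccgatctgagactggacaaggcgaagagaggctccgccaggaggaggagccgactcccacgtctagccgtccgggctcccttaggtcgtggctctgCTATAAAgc

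The guanylins traded places between the regions. Both are peptides that act on the receptor guanylate cyclase C, Gucy2c, to drive chloride and bicarbonate secretion. Uroguanylin, Guca2b, had 4138, 3325 and 2334 FPKM in the duodenum and 71.8, 51 and 37.6 FPKM in the colon (5.92 ± 0.30, adjusted p = 1.2e-05). Guanylin, Guca2a, had 198, 284 and 163 FPKM in the duodenum and 3140, 3270 and 2981 FPKM in the colon (-3.90 ± 0.23, adjusted p = 2.4e-05). The groups of each were far apart, in opposite directions. The genes face each other across 17135 bases of chromosome 4, Guca2a at chr4:119310309-119312076 on the plus strand and Guca2b at chr4:119329212-119331559 on the minus strand of NCBIM37. Gucy2c had 192, 142 and 101 FPKM in the duodenum and 84.7, 75.3 and 68.3 FPKM in the colon (0.88 ± 0.23, adjusted p = 0.019), a call lost under some scalings and without duodenum 2, colon 2 or colon 3. Their promoters are shown since these neighbours differ in opposite directions, with capitals as above.
Guca2a (chr4:119637482-119637781, plus strand): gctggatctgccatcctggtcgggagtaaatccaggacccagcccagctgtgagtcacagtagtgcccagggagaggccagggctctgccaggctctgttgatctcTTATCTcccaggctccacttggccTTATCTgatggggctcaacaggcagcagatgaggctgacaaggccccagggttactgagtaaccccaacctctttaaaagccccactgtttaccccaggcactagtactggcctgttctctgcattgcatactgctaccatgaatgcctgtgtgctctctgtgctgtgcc
Guca2b (chr4:119658896-119659195, minus strand): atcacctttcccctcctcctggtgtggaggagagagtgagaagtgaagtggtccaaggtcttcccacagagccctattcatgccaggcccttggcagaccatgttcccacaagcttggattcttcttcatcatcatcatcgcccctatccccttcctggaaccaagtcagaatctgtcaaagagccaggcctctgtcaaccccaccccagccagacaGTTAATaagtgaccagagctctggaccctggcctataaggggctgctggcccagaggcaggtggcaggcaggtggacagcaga
Guca2a held 2 GATA matches, 144 and 120 bases before the start, and Guca2b held 1 partial HNF1 site, 33 bases before the start.

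Genes for short-chain fatty acids and ketone bodies were lower for 5 of 9 and higher for 3 (1 under all 5 scalings). Slc5a8 had 0.0334, 0.136 and 0.527 FPKM in the duodenum and 66.5, 58.9 and 52 FPKM in the colon (-5.62 ± 0.18, adjusted p = 3.1e-06). The short-chain acyl-CoA dehydrogenase Acads was lower (-1.21) and the lactate exporter Slc16a3 higher (2.59 ± 0.15). Bile acid genes split evenly, 4 higher (3 under all 5 scalings) and 4 lower of 8. The basolateral exporter subunit Osta was higher (1.66 ± 0.16, adjusted p = 0.00023), and the apical importer Slc10a2, best known from the ileum, was lower, with 2.4, 2.59 and 2.01 FPKM in the duodenum and 36.3, 28.5 and 45.2 FPKM in the colon (-3.48 ± 0.18, adjusted p = 1.3e-05). Of the other ileal markers, the bile acid binding protein Fabp6 (-2.82 ± 0.59, adjusted p = 0.0072, with -2.20 without duodenum 1 and -3.41 without duodenum 2) and neurotensin, Nts (-1.92 ± 0.26, adjusted p = 0.0011), were lower too, and the hormone Fgf15 stayed under the filter in all 6 libraries. Osta, also named Slc51a and likewise chosen as an ileal marker, went the other way, as given above.

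Cytochromes P450, enzymes of drug and lipid oxidation, were higher for 12 of 16 and lower for 2, with a median of 2.59. Cyp3a25 had 212, 206 and 92 FPKM in the duodenum and 1.47, 0.484 and 0.276 FPKM in the colon (6.58 ± 0.38, adjusted p = 2.1e-05), and duodenum 3 was the lowest of its region. Cyp4v3 (5.05) and Cyp3a44 (2.60) passed in the same direction. The members on the other side were Cyp2d34, with 0.121, 0.232 and 0.307 FPKM in the duodenum and 192, 161 and 101 FPKM in the colon (-6.92 ± 0.23, adjusted p = 3.7e-06), and Cyp2c55, with 13.8, 9.53 and 2.79 FPKM in the duodenum and 229, 186 and 358 FPKM in the colon (-4.89 ± 0.50). Conjugation and efflux genes were higher for 15 of 25 (7 under all 5 scalings, and 9 without duodenum 2, colon 2 or colon 3) and lower for 4. The glucuronosyltransferase Ugt2a3 (6.09) and the sulfotransferases Sult2b1 (2.97) and Sult1b1 (2.20) were higher, and the phenol sulfotransferase Sult1a1 was lower, with 11.8, 5.87 and 8.93 FPKM in the duodenum and 302, 355 and 182 FPKM in the colon (-4.82 ± 0.31, adjusted p = 3.2e-05). Members of these families, like the defensins below, share near-identical sequence, so their counts may be divided among copies.

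Enteroendocrine hormones, made by scattered secretory cells, were higher in the duodenum for 6 of 16 genes (5 under all 5 scalings) and lower for 4. The 25% lower lay near the 20.7% of all tested genes. Gip, the incretin of the upper intestine, had 262, 317 and 327 FPKM in the duodenum and 1.58, 0.313 and 0.291 FPKM in the colon (7.53 ± 0.27, adjusted p = 4.4e-06). Cholecystokinin, Cck, had 112, 138 and 113 FPKM in the duodenum and 4.37, 3.66 and 7.95 FPKM in the colon (4.32 ± 0.24), and ghrelin, Ghrl, differed by 4.74 ± 0.26. On the colonic side, Insl5 was listed at 0 in all 3 duodena and had 109, 133 and 68.9 FPKM in the colon (adjusted p = 4e-06). Peptide YY, Pyy, had 2.2, 2.25 and 0.8 FPKM in the duodenum and 121, 114 and 63.8 FPKM in the colon (-5.19 ± 0.32), and proglucagon, Gcg, had 14.2, 15.7 and 16.4 FPKM in the duodenum and 61.3, 63.1 and 65.1 FPKM in the colon (-1.97 ± 0.10, adjusted p = 1.4e-05). Chga, a general protein of hormone granules, did not pass (-0.21 ± 0.11, adjusted p = 0.17), but was called lower under the other 4 scalings.

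Goblet cell and mucus genes were lower in the duodenum for 8 of 15. Muc2, the gel-forming mucin, had 63.4, 45.5 and 41.5 FPKM in the duodenum and 610.2, 554 and 586 FPKM in the colon (-3.54 ± 0.18, adjusted p = 1.2e-05). The secretory lineage factors Atoh1 (-2.39) and Spdef (-2.88) were lower, as was Sytl2 (-1.79). Not every goblet product followed. The lectin-like Zg16, with 3469, 5157 and 4102 FPKM in the duodenum and 5194, 5293 and 3488 FPKM in the colon, overlapped between the regions (-0.13 ± 0.31, adjusted p = 0.76). The transmembrane mucin Muc13 was the member higher in the duodenum (1.08 ± 0.26, adjusted p = 0.012), a call lost under some scalings and without colon 2. Mucin glycosyltransferases were lower for 12 of 19 and higher for 4 (3 under all 5 scalings), the higher ones being 21.1% beside 24.6% of all tested genes. St6galnac6 had 1.62, 2.2 and 2.44 FPKM in the duodenum and 259.6, 246 and 219.8 FPKM in the colon (-6.30 ± 0.14, adjusted p = 2.9e-06). The fucosyltransferase Fut2 (-4.20), the core 3 enzyme B3gnt6 (-3.30) and the core 2 enzyme Gcnt1 (-2.54) were lower too, while the sialyltransferase St3gal4 was higher (2.37).

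Paneth cells, which secrete defensins from small-intestinal crypts, were represented by 14 tested genes, 10 higher and none lower (1 lower, Ang4, without duodenum 3 or colon 2 and under the other 4 scalings). The 10 include uroguanylin, Guca2b, described above, which is also a member of the guanylin list. Lysozyme 1, Lyz1, had 592, 1200 and 2684 FPKM in the duodenum and 28.3, 41.9 and 31.5 FPKM in the colon (5.17 ± 0.50, adjusted p = 0.00022). Defa17 had 1517, 3416 and 8686 FPKM in the duodenum and 27.4, 37.5 and 25.2 FPKM in the colon (6.86 ± 0.57, adjusted p = 0.00011), and Defa-rs7 differed by 7.79 ± 0.65. Duodenum 3 was highest of its region for 13 of the 14. Without it Defa17 differed by 6.22 and Defa-rs7 by 7.01, and without duodenum 1 by 7.48 and 8.43. Reg lectins and antimicrobial proteins were higher for 3 of 15 and lower for 6, 2 and 5 under all 5 scalings, with 5 higher without colon 3. The 20% higher lay near the 24.6% of all tested genes. Saa1, a serum amyloid protein of the colon epithelium, had 0.922, 0 and 11.4 FPKM in the duodenum and 1480, 1112 and 608 FPKM in the colon (-8.44 ± 0.87, adjusted p = 0.00029). Wfdc2, a protease inhibitor, had 1.75, 2.43 and 1.53 FPKM in the duodenum and 300.4, 273 and 125 FPKM in the colon (-6.24 ± 0.33, adjusted p = 1.4e-05), and Retnla was lower (-2.45). Saa1 differed by -9.54 without duodenum 3 and by -7.69 without duodenum 2. Reg1, which the pancreas also makes, had 3691, 4965 and 5487 FPKM in the duodenum and 70.3, 3.44 and 112 FPKM in the colon (7.14 ± 1.11, adjusted p = 0.0019), with 5.70 without colon 2 and 8.03 without colon 3. Pancreatic sums, lowest in colon 2 too, are given above, and their part in the Reg1 difference was not tested. The bactericidal lectin Reg3b had 1771, 2327 and 46300 FPKM in the duodenum and 102, 74 and 4692 FPKM in the colon and did not pass (4.12 ± 1.84, adjusted p = 0.11). Without colon 3 it was called at 6.04 (adjusted p = 0.0199), and without duodenum 3 the difference was 2.62. Library 3 was highest for it in both regions by more than 10 times.

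Receptors of bacterial patterns were lower in the duodenum for 6 of 8, each under all 5 scalings. Of the 8, 2 were under 1 FPKM in all 3 duodena, Tlr4 among them, and passed the filter only through the colon. With a library left out and the filter applied again, 4 to 6 were lower. Tlr4, the receptor of lipopolysaccharide, had 0.522, 0.349 and 0.414 FPKM in the duodenum and 4.61, 4.77 and 4.94 FPKM in the colon (-2.02 ± 0.11, adjusted p = 1.7e-05). Tlr1 (-2.46), Tlr2 (-2.40), and the flagellin receptor Tlr5 (-1.21) were lower with it. Chemokines were higher for 7 of 15 (6 under all 5 scalings) and lower for 4, with 2 lower without duodenum 2 or any one of the colons. The lower ones were 26.7% beside 20.7% of all tested genes. Ccl25, which draws lymphocytes to the small intestine, had 704, 839.8 and 814 FPKM in the duodenum and 7.71, 8.67 and 3.93 FPKM in the colon (6.72 ± 0.25, adjusted p = 4.9e-06). Its receptor Ccr9 was higher as well (1.64 ± 0.27, adjusted p = 0.0023), beside the higher T cell genes above. Cxcl16 (2.63) and Cxcl14 (1.20) were higher and Cxcl12 (-1.72) was lower.

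Among 10 claudins 6 were lower and 2 higher (1 under all 5 scalings), the higher ones being 20% beside 24.6% of all tested genes. Of the 10, 2 were under 1 FPKM in all 3 duodena, Cldn8 and Cldn14, and passed the filter only through the colon. With a library left out and the filter applied again, 2 to 7 were lower. Cldn8, a sealing claudin, had 0.697, 0.438 and 0.273 FPKM in the duodenum and 43.6, 21.9 and 16.8 FPKM in the colon (-4.17 ± 0.33, adjusted p = 8.2e-05), and Cldn14 was lower too (-1.73). Of 6 keratins of simple epithelium, 3 were lower and 1 higher. Krt7 (-1.65 ± 0.13) and Krt19 (-1.19 ± 0.18) were lower, and Krt20, a keratin of mature enterocytes, had 1349, 1298 and 1643 FPKM in the duodenum and 430.5, 401 and 573 FPKM in the colon (1.62 ± 0.21, adjusted p = 0.00078). Stem cell and Wnt target genes were lower for 6 of 12 (5 under all 5 scalings) and higher for 2 (1, and 1 without colon 2). The crypt genes Sox9 (-1.42 ± 0.13) and Ephb3 (-1.46 ± 0.12) and the membrane protein gene Prom1 (-1.72 ± 0.30) were lower, and the RNA-binding Msi1 was higher (0.62 ± 0.13). The stem cell marker Lgr5, with 2.52, 1.78 and 2.03 FPKM in the duodenum and 2.54, 2.9 and 3.19 FPKM in the colon, did not pass (-0.32 ± 0.14, adjusted p = 0.098), but was called lower under 3 of the other 4 scalings. Of 16 proliferation genes, none passed in either direction, and 3 were higher without colon 3, which held the highest values, and 1 lower without colon 2. Under another scaling up to 5 were lower. Mki67 had 14, 11.9 and 13.5 FPKM in the duodenum and 14.4, 15.7 and 32 FPKM in the colon (-0.54 ± 0.28, adjusted p = 0.16), and -1.01 with no rescaling (adjusted p = 0.0211).

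**Figure D5:**
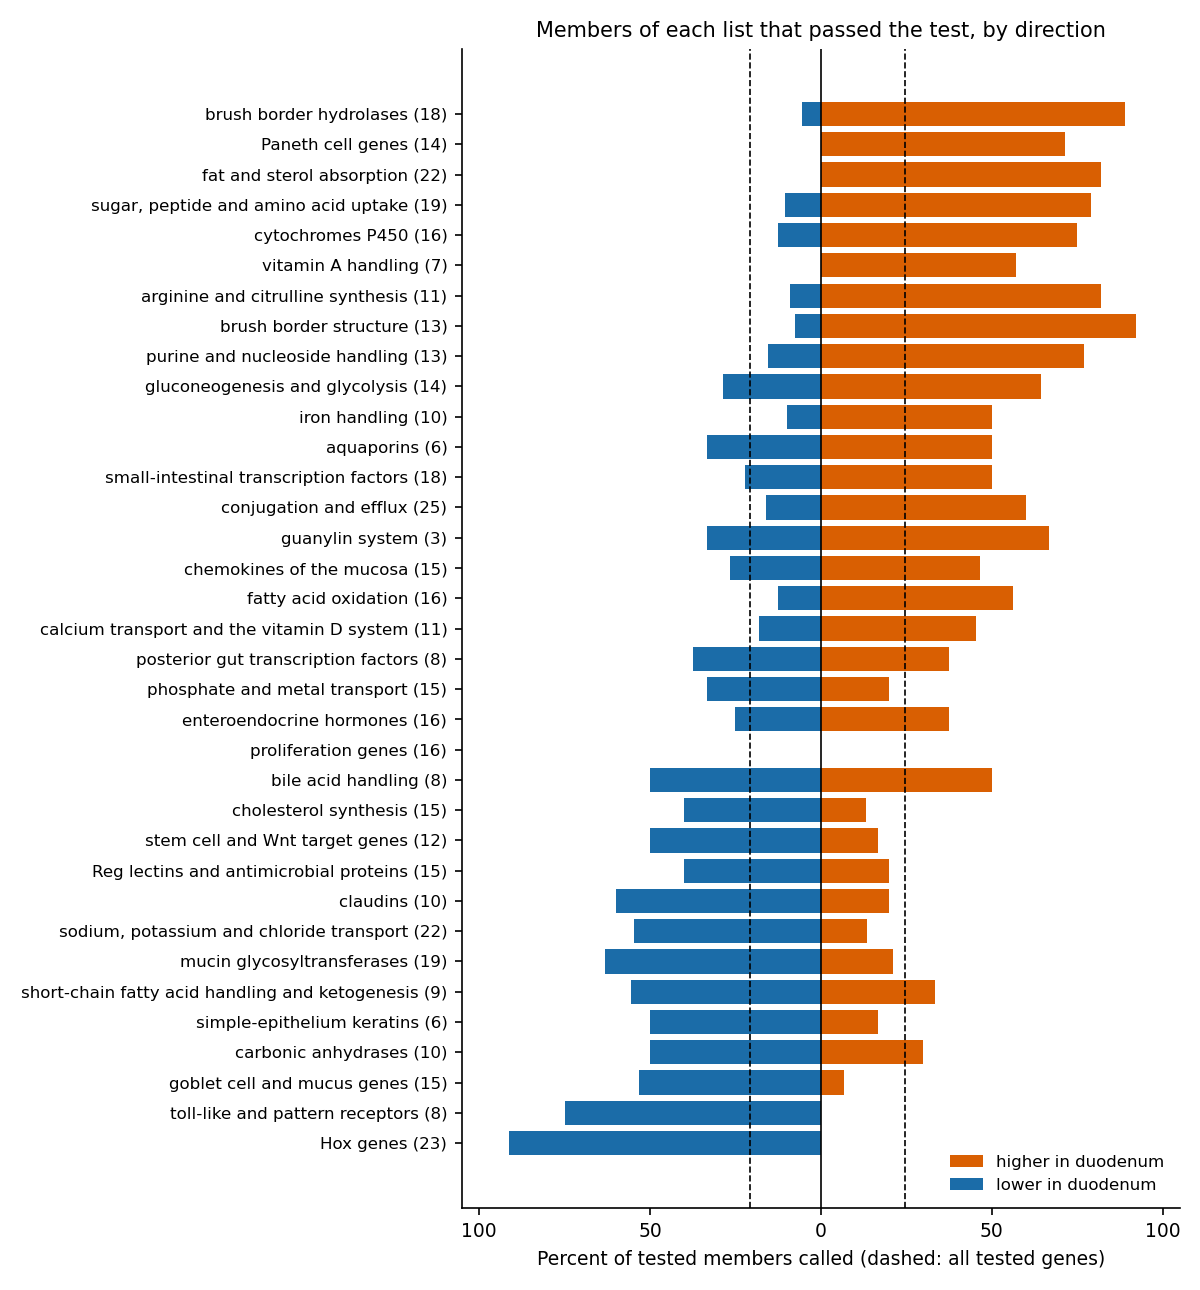
Percent of the tested members of each gene list (their number in brackets) that passed the test, to the right of 0 for genes higher in the duodenum and to the left for genes lower there, with dashed lines at the 24.6% and 20.7% of all tested genes. Brush border hydrolases reach 88.9% on the higher side and Hox genes 91.3% on the lower side, and proliferation genes show no bar.

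The regional contrast was then looked up in the calcitriol-treated mice, which share no library with the deficient ones. Of 12593 genes tested there, 2783 (22.1%) were higher and 2390 (19%) lower in the duodenum. Among genes tested in both, 2345 were higher in treated and in deficient mice, 86.4% of the 2715 treated calls and 78% of the 3007 deficient calls. For lower genes, 1956 were shared, 85.9% of 2278 treated calls and 77.6% of 2519 deficient calls. A call in the opposite direction occurred for 1 higher gene and no lower gene. Hoxb13 differed by -6.37 in treated mice beside -6.98 in deficient mice, Car1 by -7.56 beside -10.31, Fabp1 by 9.40 beside 9.01, Guca2a by -3.64 beside -3.90 and Guca2b by 6.12 beside 5.92.

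Whether the regional difference itself changed with treatment was tested as an interaction over 13010 genes, and none (0%) passed an adjusted p of 0.05 in limma, with 302 at an unadjusted p under 0.05. Without treated duodenum 1 the count was 21, of which 20 were higher and 1 lower, and without treated colon 1 it was 1. Values follow for Slc37a2, S100g, Slc30a10 and Trpv6 of the panel of the labels and for Cldn2. Those of Vdr and Cyp24a1 in treated mice are not reported here. Slc37a2 averaged 108 FPKM in treated duodenum and 23.1 FPKM in treated colon, a difference of 2.21 (adjusted p = 0.011) beside -0.23 in deficient mice, and the interaction was 2.45 ± 1.02 (adjusted p = 1). S100g differed by 1.59 in treated mice (adjusted p = 0.033) beside 3.71 in deficient mice (interaction -2.12 ± 1.30, adjusted p = 1). Slc30a10 differed by 0.80 beside 2.51 (interaction -1.70 ± 0.82), and Cldn2 by 0.01 beside -1.25 (interaction 1.27 ± 0.64). Trpv6 averaged 26.7 FPKM in treated duodenum and 57.6 FPKM in treated colon (difference -1.58, adjusted p = 0.089). With the column number as a block the adjusted p in limma was 0.02 (-1.58), past the threshold. Trpv6 was at or under 1.22 FPKM in deficient duodenum and 4.09 FPKM in deficient colon. None of these interactions passed, which does not show that the regional differences were equal in treated and deficient mice.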

How the data were processed

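Poly(A) RNA of duodenum and colon was sequenced, and the authors deposited FPKM values per gene for each library. Per the labels' protocols, libraries were made with a NEBNext Ultra II kit and reads were analysed in CLC Genomics Workbench. Per the submitters' processing notes, kallisto 0.45.0, DESeq 1.14.0, DESeq2 and build mm9 were also used, with no role given. For 82.5% of 17601 genes above 0 in at least 3 libraries the deposited FPKM values were whole multiples of 1 read, within 0.0001 of a whole number. Whether counting used strand is not known, so reads of overlapping or antisense genes may be mixed.

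The 6 deficient libraries came from the tables with 7 libraries per region, and 15 columns of other samples were not used. The values were rescaled by their median ratios, filtered at 1 FPKM in at least 3 libraries and tested as log2(FPKM + 1) in limma 3.58.1 (R 4.3.3) with a mean-variance trend, two-sided, with Benjamini-Hochberg adjustment at 0.05. Treated mice were tested likewise, and an interaction contrast compared both sets. The test was checked on simulated data. Tables were made with Python 3.11.15, pandas 2.3.3 and numpy 2.4.6, and figures with matplotlib 3.10.9. The alternatives were other pseudocounts (0.5, 0.1), filters (none, a mean of 1 FPKM, 5 FPKM), scalings, 4 deficient libraries per region, each library left out, a replicate block, robust and weighted fits, and limma's voom on the recovered reads, which called 5031 genes, 2486 higher and 2545 lower, of 11964. Leaving a library out with the same genes tested, and a replicate block in the treated mice, were added after seeing the data. The column names of the treated mice carry the same 4 numbers in both regions, and the block took these numbers to pair the libraries. Deviations of same-numbered libraries correlated at 0.13, 0.196, 0.439 and 0.201. Differently numbered libraries reached 0.38, for treated duodenum 5734 with treated colon 1, so the correlations do not settle the pairing. Positions are from GENCODE on NCBIM37, and promoters from RefSeq on GRCm38.p6.

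The members, the 48 gene lists and the tests were chosen with earlier results of these data known. Genes named were the 12 with the smallest p in each direction among called genes at least 2-fold apart without overlap, up to 4 with the smallest p of each list, all tested Hox genes and tissue markers, and the panel of the labels, Vdr, Cyp24a1, S100g, Trpv6, Slc30a10 and Slc37a2, and some of these appear only in the counts of their lists or are not reported here. Named beyond this rule, after their values were seen, were Akp3, Apoa1, Apoc3, Asl, Ass1, Atp12a, Best2, Car13, Car2, Car3, Ccr9, Cd36, Cdx2, Cftr, Chga, Cpt1a, Eps8, Foxa1, G6pc, Gata5, Gata6, Hmox1, Hnf4a, Hnf4g, Hoxb1, Lgr5, Mep1a, Mep1b, Mttp, Muc13, Npc1l1, Nr5a2, Nt5e, Otc, Pfkl, Pfkp, Pyy, Reg3b, Scnn1a, Sis, Slc29a1, Slc2a2, Slc7a7, St3gal4, Zg16, Gkn1 and Gkn2.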

Additional observations from a re-analysis of the deposited data

Results flagged for a closer look

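The deficient duodenum minusD5718, present in the tables with 8 libraries per region and used in no comparison above other than the alternative with 4 libraries per region, held stomach transcripts. As deposited, Gkn2, a gastrokine of the stomach lining, was at 1215 FPKM there and Gkn1 at 557.4 FPKM. In duodena 1, 2 and 3 Gkn2 was listed at 0 and Gkn1 at 0.0282, 0 and 0.0258 FPKM, and in the minusD5718 colon Gkn2 was at 0.394 FPKM and Gkn1 at 0. No other library of the deficient duodenum came near these values, and their cause was not tested.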

How the results depend on the processing

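Of 238 tested genes with values in the text, 221 were called, and 209 of these kept the call and its direction under each of the 26 alternatives that tested them. The other 12 lost it under at least 1 alternative and kept their direction. They were Car3, Cpt1a, Gucy2c, Hmgcs1, Hoxb4, Lss, Muc13, Pgc, S100g, Slc30a10, Slc7a7 (-0.65, adjusted p = 0.0527 in limma without colon 1, same genes tested) and Tff2. Of the 17 genes not called, 12 were called in their direction under at least 1 alternative: Ang4, Car2, Cd36, Chga, Hoxa4, Lgr5, Mki67, Reg3b, Slc40a1, Trpv6, Vdr and Zg16. The genes that changed direction were not called in the comparison as given. With no rescaling Cdx2 was at -0.35, Cftr at -0.44 (adjusted p = 0.047 in limma), Hnf4a at -0.33 (adjusted p = 0.0478), Hoxb2 at -0.29 and Vdr at -0.07. Under quantile normalization the values were -0.35 for Cdx2, -0.22 for Cftr, -0.38 for Hnf4a (adjusted p = 0.0326) and -0.06 for Vdr. Upper-quartile rescaling gave -0.11 for Cdx2, -0.21 for Cftr, -0.09 for Hnf4a and -0.13 for Hoxb2, and the median ratio over genes of at least 10 FPKM gave -0.14, -0.23, -0.12 and -0.15 in that order. With 4 deficient libraries per region Cdx2 was at -0.09 and Hoxb2 at -0.13. Cftr was at -0.04 with array weights and Slc37a2 at 0.38. When 1 library was left out, Cftr ranged from -0.09 (without duodenum 1) to 0.15, with -0.05 without colon 3, and Hoxb2 from -0.01 (without colon 1) to 0.10. Zg16 ranged from -0.32 to 0.01 (without duodenum 1). Slc37a2 ranged from -0.78 to 0.66 (without duodenum 3), with 0.05 without colon 1 and 0.03 without colon 2.

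The 5611 calls in deficiency became 3679 to 5779 when 1 library was left out and genes were filtered again, lowest without colon 2, and 4226 to 6004 with the same genes tested. Higher calls were 2183 to 3066 and 2266 to 3291 in these 2 ways, and lower calls 1470 to 2713 and 1960 to 2713, with 1470 without colon 2 and 1604 without colon 1. The Hox genes lower in the duodenum numbered 6 to 21 when the filter was applied again, and 20 or 21 with the same genes tested. When a colon is left out, that filter removes genes under 1 FPKM in every duodenum. Higher calls were 1473 with no rescaling and 1940 with the median ratio over genes of at least 10 FPKM. Lower calls were 1484 at a filter of 5 FPKM, 6044 with no rescaling, 3978 with upper-quartile rescaling, 4153 with the 10 FPKM ratio and 3924 with array weights, whose fit gave a convergence warning. In treated mice no rescaling gave 1397 higher and 5564 lower genes, and leaving out 1 library gave 4068 to 6243 calls, 2219 to 3319 higher and 1849 to 2924 lower. The interaction had 0 to 21 calls when 1 library was left out, 0 to 20 higher and 0 to 1 lower. Across lists, the lower calls reached 7 for enteroendocrine hormones, 5 for adipocytes, 5 for keratins, 4 for general epithelium, 2 for fat absorption, 2 for iron handling and 2 for arginine synthesis under another scaling. With a library left out and the filter applied again they were at least 7 for sodium, potassium and chloride transport, 2 for claudins, 3 for phosphate and metal transport and 3 for the Reg list, and higher small-intestinal transcription factors at least 5. The cause of these changes was not tested.

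A replicate block on the column number gave 6170 calls, 3323 higher and 2847 lower. Deviations of same-numbered libraries correlated at 0.224, -0.171 and 0.29, and duodenum 2 correlated best with colon 1 (0.274), whereas duodena 1 and 3 correlated best with their own number. The labels do not tie these numbers to animals, and whether they share animals is not known. In treated mice the block gave 5435 calls, 2916 higher and 2519 lower, and the interaction with it 0 calls, with 402 at an unadjusted p under 0.05. In treated mice it changed, among Slc37a2, S100g, Slc30a10, Trpv6 and Cldn2, only the call of Trpv6. With no filter, 6462 of 18125 genes were called.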

Other observations

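Fatty acid oxidation, which burns fat in mitochondria and peroxisomes, was higher in the duodenum for 9 of 16 tested genes (5 under all 5 scalings) and lower for 2, none of which passed without colon 1. The peroxisomal enzyme Ehhadh had 112, 80.8 and 69.9 FPKM in the duodenum and 16, 15.3 and 12.7 FPKM in the colon (2.48 ± 0.19, adjusted p = 7.6e-05 in limma). Every duodenal library lay above every colonic one. Acaa2 (1.46) and the pantetheinase Vnn1 (1.39) were higher too, and carnitine palmitoyltransferase Cpt1a, named after its values were seen, was lower (-1.06, a call lost without colon 1 or colon 2). Of 15 cholesterol synthesis genes, 6 were lower in the duodenum and 2 higher (1 under all 5 scalings), with 10 or 11 lower under the other 4 scalings. Hmgcs1, an early enzyme of the pathway, had 23.8, 22.8 and 26.4 FPKM in the duodenum and 48.4, 48 and 51.6 FPKM in the colon (-0.99 ± 0.11, adjusted p = 0.00033 in limma). Its groups were apart, and Lss (-0.69) was lower as well. With 4 deficient libraries per region the difference was -0.71 for Hmgcs1 (adjusted p = 0.114) and -0.66 for Lss (adjusted p = 0.128). Sc5d, a late enzyme, was higher in the duodenum (1.17).

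The neighbours of Car1 on chromosome 3 did not share its direction in every case. Car13, named with Car3 and Car2 after their values were seen and 103.2 kb from Car1, was higher in the duodenum, with 35.5, 38.8 and 37.5 FPKM there and 12.6, 12.1 and 19.3 FPKM in the colon (1.32 ± 0.18). Car3, 85.1 kb away on the other side, was lower (-2.39 ± 0.77, adjusted p = 0.039 in limma). That call was lost without duodenum 1, duodenum 3, colon 2 or colon 3, and the difference was -3.28 without duodenum 2. Car2, a further 14.1 kb on, did not pass (0.49 ± 0.18, adjusted p = 0.067), but did without duodenum 3 (0.59, adjusted p = 0.0484). Of 12 stomach genes listed, 3 passed the filter, 2 of them only through the duodenum, since they were under 1 FPKM in all 3 colons, and all 3 were higher there. Gkn3 had 9.08, 12.7 and 6.93 FPKM in the duodenum and 0.0958, 0.427 and 0.265 FPKM in the colon (3.04 ± 0.22), Pgc differed by 1.10 (2.22, adjusted p = 0.0689, with 4 deficient libraries per region), and the trefoil peptide Tff2 had 48, 241 and 39.4 FPKM in the duodenum and 14.7, 0.227 and 12.8 FPKM in the colon (3.60 ± 1.09, adjusted p = 0.032). Tff2 was highest in duodenum 2 and lowest in colon 2, as were the pancreatic sums. Its call was lost without duodenum 1 (3.96), duodenum 2 (2.81) or colon 2 (2.40), and without colon 1 the difference was 4.23. It was also lost with a replicate block (3.60, adjusted p = 0.0659), in limma's voom (adjusted p = 0.0613), with a pseudocount of 0.1 (adjusted p = 0.0557) and with no filter (adjusted p = 0.0548).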
